A study of Mus musculus with 2 samples.

Results

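Glycolysis and the tricarboxylic acid (TCA) cycle were followed through 36 genes: 16 of glycolysis and lactate formation, 4 of the pyruvate dehydrogenase complex and 16 of the TCA cycle with its cytosolic counterparts. The genes were chosen by name, and all 36 were found among 20722 gene symbols of the deposited table. RNA of small-intestinal villi from mice had been sequenced, with 1 library per genotype. The control was a C57BL/6 mouse of genotype Rosa26-CreERT2 Cdkn2a-/-. The other library was from a C57BL/6 mouse of genotype Rosa26-CreERT2 Cdkn2a-/- Ring1a-/- Ring1bf/f, called dKO-labelled below. Both mice therefore lacked Cdkn2a and carried the tamoxifen-inducible Cre, and both were sampled 6 days after 3 tamoxifen injections. The sources used here give neither age nor sex. Rosa26 is active in most cell types, so the Cre is not limited to the epithelium.

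Glycolysis splits glucose into pyruvate in the cytosol, and lactate dehydrogenase converts pyruvate to lactate. Pyruvate dehydrogenase turns pyruvate into acetyl-CoA inside mitochondria, and the TCA cycle oxidises it and passes electrons to the respiratory chain. Enterocytes, the absorptive cells of the villus, run both routes, and their use of fuels differs between crypt and villus. Ring1 (Ring1a) and Rnf2 (Ring1b) encode the ubiquitin ligases of Polycomb repressive complex 1, a silencer of developmental genes.

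The libraries held 775827 reads (control) and 1058196 reads (dKO-labelled). Because each genotype had 1 library, no difference could be set against a spread between replicates, and all comparisons are of these libraries and not of the genotypes. Intervals are 95% exact (Clopper-Pearson) intervals and cover counting error only. Ring1 had 10 and 10 reads and Rnf2 59 and 82, in the order control and dKO-labelled that is kept throughout, so transcript counts did not show the loss that the label names. Reads of 10 absorptive enterocyte markers summed to 9382 and 12765, 1.23-fold higher with the deposited size factors (1.19 to 1.26; 8 of 10 higher after scaling). Vil1, Alpi and Apoa4 were abundant in both, but the markers differed unequally. Sis had 37 and 357 reads (8.70-fold higher, 6.19 to 12.6) and Lct 184 and 847 (4.15-fold, 3.53 to 4.89). Apoa1 and Apoa4 were slightly lower (ratios 0.906 and 0.933). Of other cell types, 6 fibroblast markers summed to 42 and 222 reads (5 of 6 higher after scaling, Dcn at 0 in both) and 6 smooth muscle markers to 42 and 218 (6 of 6 higher, Myh11 at 0 and 1). Crypt stem cell markers summed to 8 and 63 (4 of 4 higher, Olfm4 at 0 in the control) and 4 Paneth cell markers to 1135 and 2070 (4 of 4 higher). Endothelial markers summed to 52 and 20 reads (2 of 4 higher, Cdh5 at 0 and 1), and immune markers to 72 and 87 (3 of 6 higher, Ptprc at 0 in both). The goblet cell sum was lower, at 4126 and 3000 (2 of 5 higher), as was the tuft cell sum, at 189 and 33 (0 of 2 higher, Dclk1 at 0 in both). Enteroendocrine markers summed to 988 and 2112 (2 of 2 higher). The part of these cell types in the results below was not tested. Xist had 80 and 1 reads and the Y-linked gene Ddx3y 0 and 131, so sex and genotype label cannot be told apart. In tissue RNA, fewer cells of a type and less RNA per cell cannot be told apart either.

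The promoters of 3 members are shown because they hold the hypoxia response element core and their genes differed in opposite directions. They were chosen after motifs and values were seen: the glycolytic genes Hk2 and Pgk1 were lower in the dKO-labelled library, and Idh3g is the only member called higher, of those with a promoter in the table, whose window holds this core. Hk2 and Pgk1 were lower by less than 2-fold with the deposited size factors. The other measured members with the core lay above the control. They were the glycolytic genes Pgam1 (ratio 1.91) and Pkm (1.19), and Mdh1 (1.52) and Pdhb (1.20). Pfkp, which was also lower, lacks the core. Each is the 250 bases before the transcription start in RefSeq on GRCm38.p6, and the capitals mark ACGTG or its reverse complement CACGT, the core of the hypoxia response element. They lie at chr6:82774455-82774704 (minus strand), chrX:106186850-106187099 (plus strand) and chrX:73786898-73787147 (minus strand).
Hk2: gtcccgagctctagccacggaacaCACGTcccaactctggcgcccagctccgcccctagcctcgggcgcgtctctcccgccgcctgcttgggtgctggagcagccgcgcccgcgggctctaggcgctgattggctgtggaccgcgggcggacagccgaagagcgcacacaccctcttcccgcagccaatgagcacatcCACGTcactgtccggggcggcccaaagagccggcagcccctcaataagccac
Pgk1: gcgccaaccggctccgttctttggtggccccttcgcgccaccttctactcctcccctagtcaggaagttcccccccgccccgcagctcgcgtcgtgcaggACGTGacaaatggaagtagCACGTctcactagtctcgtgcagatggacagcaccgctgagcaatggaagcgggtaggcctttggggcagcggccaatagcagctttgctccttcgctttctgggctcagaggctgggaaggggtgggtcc
Idh3g: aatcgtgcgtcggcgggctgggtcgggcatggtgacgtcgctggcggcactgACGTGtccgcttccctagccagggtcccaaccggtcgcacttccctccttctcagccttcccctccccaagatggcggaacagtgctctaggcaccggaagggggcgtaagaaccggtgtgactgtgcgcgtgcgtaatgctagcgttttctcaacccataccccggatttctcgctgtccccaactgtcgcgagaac

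The promoter table held 35 of the 36 members. ACGTG, searched on both strands, also lies within the E-box CACGTG. It was found for 7 of 16 glycolysis genes (Aldoa, Hk2, Ldha, Pfkm, Pgam1, Pgk1 and Pkm), 1 of 4 pyruvate dehydrogenase genes (Pdhb) and 4 of 15 TCA cycle genes (Idh3g, Mdh1, Me1 and Ogdh), and in 16.6% of all 32851 windows of this length. Genes with several start sites had more than 1 window. Other motifs were searched on both strands too. The 10-base core bound by NRF1 was found for 2 of 16, 0 of 4 and 1 of 15 genes and in 3.74% of windows. CCGGAAG, the core bound by ETS factors, was found for 1 of 16, 0 of 4 and 1 of 15 and in 6.91% of windows. The motifs were chosen with the values of the members known, and matches are descriptions of letters alone.

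The comparison sets the library labelled as lacking the Polycomb ligases against the control. With the deposited size factors, TCA cycle and pyruvate dehydrogenase genes were mostly higher in the dKO-labelled library, whereas glycolysis genes lay on both sides of the control. Counts were scaled by the deposited size factors (ratio 1.11), and a gene was called measured at a mean normalised count of at least 20 over both libraries. Of the 36 members 27 were measured. A gene was called higher or lower at a 2-fold difference in normalised counts with 1 added to each. Of the measured members 12 were higher and 0 were lower, against 26.2% higher and 4.18% lower among 6001 measured genes. By group, 1 of 10 measured glycolysis genes, 3 of 4 pyruvate dehydrogenase genes and 8 of 13 TCA cycle genes were higher. These counts include genes measured through the dKO-labelled library only, which the filter favoured. They were Aldoc in glycolysis, Dlat in pyruvate dehydrogenase, and Idh2 and Fh1 in the TCA cycle. The median log2 ratio was 0.30 for glycolysis, 1.35 for pyruvate dehydrogenase and 1.70 for the TCA cycle, beside 0.51 for all measured genes. Relative to that median of 0.51, 10 members were at least 2-fold higher (11.8% of all measured genes) and 2 at least 2-fold lower (10.4%). The 10 were those of the main call other than Dld and Aco1, and the 2 were Hk2 and Pfkp.

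Other scalings moved all genes alike, and members with ratios near 1 then changed direction. With the upper quartile the log2 ratios of Pfkl, Tpi1, Pkm, Pdhb, Cs, Sucla2, Mdh1 and Mdh2 were below 0, and with TMM those of Tpi1 (-0.15), Pkm (-0.27), Pdhb (-0.26), Cs (-0.21), Sucla2 (-0.17) and Mdh2 (-0.02). Below, the direction given for these genes is that of the deposited size factors. Called higher and lower were 10 and 1 members with total counts (16.3% and 7.34% of all genes), 10 and 2 with TMM (11.2% and 11%) and 9 and 2 with the upper quartile (8.06% and 15.3%). Without a filter the counts were 15 and 1 (17.9% and 4.3%), and with the minimum mean raised to 100 they were 5 and 0 (14.8% and 4.31%). When the whole counting interval had to lie beyond 2-fold they were 10 and 0 (10.4% and 1.73%). The exact binomial test on reads, which compares the libraries alone, called 21 members higher and 3 lower (50.2% and 11.6%).

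**Figure D1:**
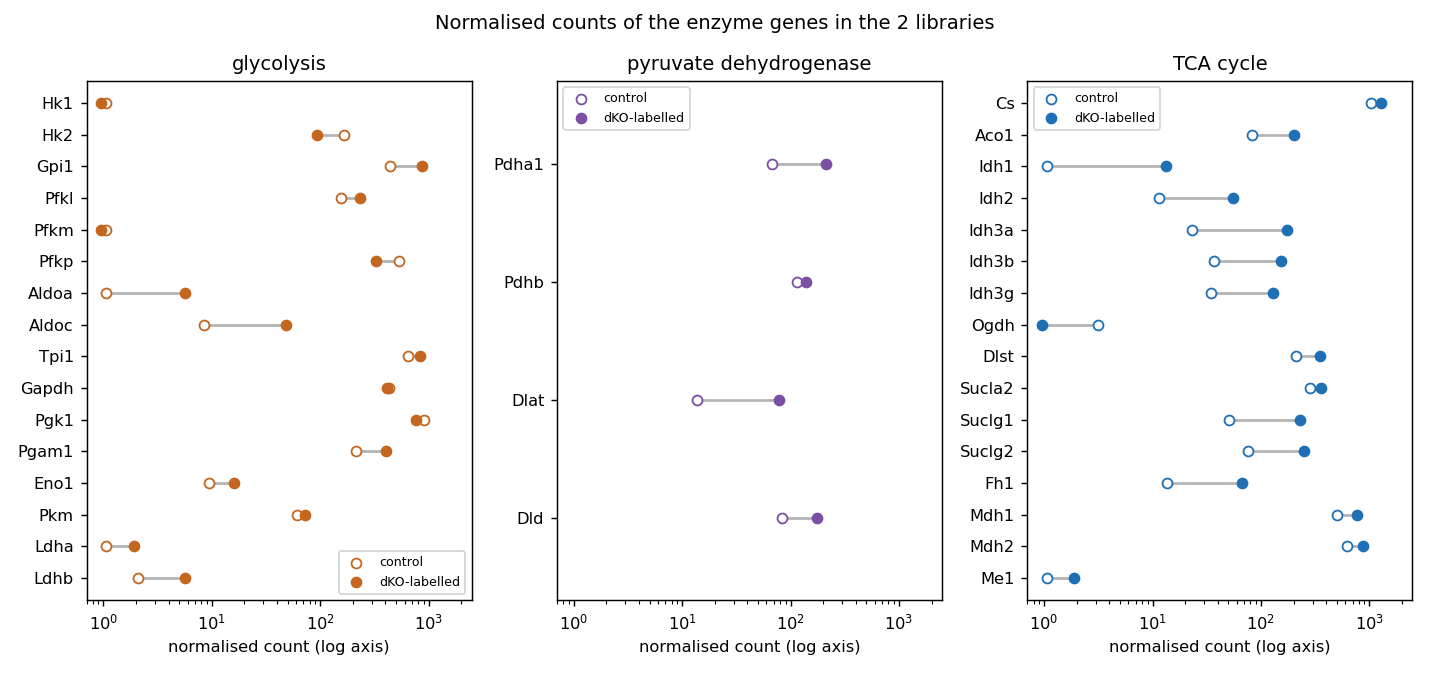
Normalised counts (log axis) of the 36 genes in the control (open circles) and dKO-labelled library (filled circles), 1 panel per group. Idh3a, Idh3b, Idh3g and Suclg1 lie well to the right in the dKO-labelled library, while Hk2, Pfkp and Pgk1 lie to the left, and Hk1, Pfkm, Ldha and Me1 are near the lowest value of both libraries.

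The level of a gene went along with its ratio over the whole table. Among genes with a mean of 20 to 50 the median log2 ratio was 0.77 and 38.4% were higher, against 0.10 and 6.27% at a mean of 500 or more. In the bin from 100 to 200 the median was 0.40 and 19.1% were higher. There 5 of 8 members were higher. In the bin from 50 to 100 it was 3 of 4 members beside 27.5% of genes, and in the bin from 20 to 50 4 of 4 beside 38.4%. None of the 11 members with a mean of 200 or more was higher. Of the 13 measured TCA cycle genes 13 lay above the median of their own bin, of the 10 glycolysis genes 5, and of the 4 pyruvate dehydrogenase genes 3. With the median of each bin set to 0, the same 10 members as above were at least 2-fold higher (10.2% of all measured genes) and Hk2 alone was lower (10.7%). Aldoc, Dlat, Idh2 and Fh1, the 4 members in the bin from 20 to 50, had control counts below 20. They counted as measured through the dKO-labelled library only, so their high ratios, and the 4 of 4 in that bin, were favoured by the filter.

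**Figure D2:**
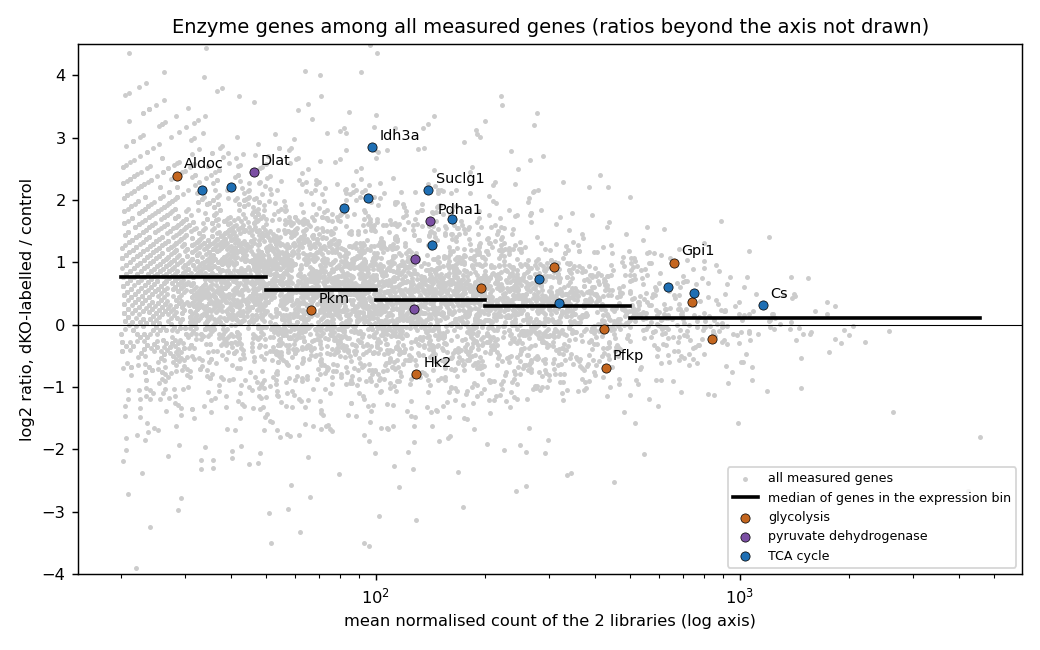
Log2 ratio of the dKO-labelled to the control library against the mean normalised count (log axis) for all 6001 measured genes (grey), with the members coloured by group and black lines at the median of each expression bin. The bin medians fall from 0.77 to 0.10 with the level. The 13 TCA cycle genes lie above their line.

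Hexokinase phosphorylates glucose and so traps it in the cell. Hk2 had 155 and 98 reads, 1.75-fold lower (1.35 to 2.28). Hk1 had 0 reads in both. Gpi1, which converts glucose 6-phosphate to fructose 6-phosphate, had 417 and 924 reads, 2.00-fold higher (1.78 to 2.25), at a log2 ratio of 0.99 just outside the 2-fold call.

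Phosphofructokinase, the main control point of glycolysis, differed between the libraries in the read shares of its subunit genes. Pfkp, the platelet-type subunit, had 502 and 345 reads, 1.61-fold lower (1.40 to 1.86). Pfkl, the liver-type subunit, had 147 and 246 reads, 1.51-fold higher (1.22 to 1.86). With the deposited size factors, the 2 genes thus lay on opposite sides of the control. Pfkl made up 22.7% of phosphofructokinase reads in the control (19.5 to 26.1), against 41.6% of them (37.6 to 45.7) in the dKO-labelled library. The odds of Pfkl against Pfkp were 2.43-fold higher (1.89 to 3.14). A share or odds within a library does not depend on the scaling between libraries. The log2 ratio of Pfkl itself was -0.10 with the upper quartile against 0.59, so its own direction does depend on it. Pfkm, the muscle-type subunit, had 0 reads in both.

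Among the aldolases, which split fructose 1,6-bisphosphate, Aldoc had 7 and 50 reads, 6.44-fold higher (2.91 to 16.8). It was the only glycolysis gene called higher. Aldoa had 0 and 5 reads in its higher row.

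The later steps of glycolysis held some of the most abundant members. Tpi1, which interconverts the triose phosphates, had 613 and 876 reads (1.29-fold higher, 1.16 to 1.43). Gapdh, which makes the first NADH of the pathway, had 410 and 434 reads (ratio 0.954, 0.832 to 1.09), and its interval includes 1. Pgk1, the first ATP-forming enzyme, had 859 and 810 reads, 1.18-fold lower (1.07 to 1.30). Below it, Pgam1, the phosphoglycerate mutase, stood apart with 201 and 426 reads, 1.91-fold higher (1.61 to 2.27). Eno1, the enolase, had only 8 and 16 reads and was not measured. Pkm, the pyruvate kinase of most tissues, had 57 and 75 reads in its higher row (1.19-fold, 0.829 to 1.70) and 7 and 1 in its other row. Lactate dehydrogenase was barely detected, with 0 and 1 reads for Ldha and 1 and 5 for Ldhb, so the lactate branch could not be assessed.

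**Figure D3:**
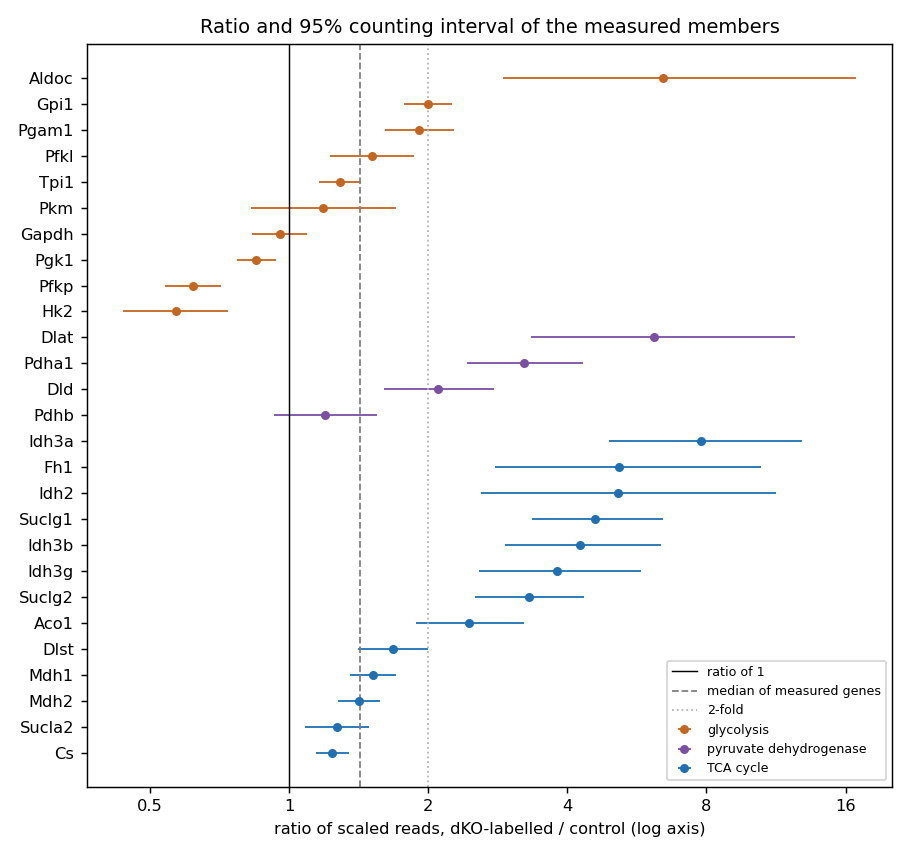
Ratio of scaled reads, dKO-labelled over control (log axis), for the 27 measured members with 95% counting intervals, coloured by group, beside lines at 1, at the median of measured genes and at 2-fold. Glycolysis genes lie on both sides of 1 and the TCA cycle genes all lie to the right of it, from Cs at 1.24 to Idh3a at 7.77.

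For pyruvate dehydrogenase, the gate from glycolysis to the TCA cycle, reads differed unequally among the subunit genes. Dlat, the acetyltransferase core (E2), had 12 and 82 reads, 6.16-fold higher (3.34 to 12.4). Pdha1, the catalytic alpha subunit of the decarboxylase (E1), had 63 and 225 reads, 3.22-fold higher (2.42 to 4.33). Its partner Pdhb, the beta subunit, had 109 and 145 reads, a ratio of 1.20 (0.929 to 1.55). Dld, the dehydrogenase (E3) shared with the oxoglutarate complex, had 78 and 182 reads, 2.10-fold higher (1.60 to 2.78), and fell just inside the 2-fold call at a log2 ratio of 1.05. Pdha1 made up 36.6% of the reads of the E1 pair in the control (29.4 to 44.3), against 60.8% of them (55.6 to 65.8) in the dKO-labelled library. The odds of Pdha1 against Pdhb were 2.68-fold higher (1.82 to 3.98). Those of Dlat against Pdhb, a pair added after the values were seen, were 5.12-fold higher (2.61 to 10.8). Dlat counted as measured through the dKO-labelled library only.

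The TCA cycle was entered by Cs, citrate synthase, with 981 and 1350 reads (1.24-fold higher, 1.14 to 1.35). This was the smallest ratio of the measured TCA cycle genes. The NAD-dependent isocitrate dehydrogenase, a control point of the cycle, lay at the other end with all of its subunits. Idh3a, the catalytic alpha subunit, had 21 and 181 reads, 7.77-fold higher (4.93 to 12.9). Idh3b, the beta subunit, had 34 and 161 reads, 4.27-fold higher (2.93 to 6.38). Idh3g, the gamma subunit, had 32 and 135 reads, 3.80-fold higher (2.57 to 5.78). Idh3a made up 24.1% of the reads of the 3 genes in the control (15.6 to 34.5), against 37.9% of them (33.6 to 42.5) in the dKO-labelled library. The odds of Idh3a against Idh3g were 2.04-fold higher (1.09 to 3.90), whereas the intervals for Idh3a against Idh3b (1.82, 0.979 to 3.44) and for Idh3b against Idh3g (1.12, 0.634 to 1.98) include 1.

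The NADP-dependent isocitrate dehydrogenases, which supply NADPH, were few in reads. Idh2, the mitochondrial enzyme, had 10 and 57 reads, 5.14-fold higher (2.60 to 11.3). Idh1, the cytosolic enzyme, had 0 and 13 reads in its higher row, at least 3.91-fold higher when 3 reads, the limit that a count of 0 allows, are put in for the control (exact lower limit 2.75), and was below the limit for a measured gene.

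Further along the cycle, Dlst, the succinyltransferase of the oxoglutarate dehydrogenase complex, had 199 and 370 reads (1.68-fold higher, 1.41 to 2.00). Ogdh, the first subunit of that complex, had 2 and 0 reads in its higher row and was not measured. Succinyl-CoA ligase makes ATP or GTP according to its beta subunit. Suclg1, the shared alpha subunit, had 47 and 240 reads, 4.60-fold higher (3.36 to 6.43). Suclg2, the GTP-forming beta subunit, had 71 and 260 reads, 3.30-fold higher (2.53 to 4.35). Sucla2, the ATP-forming beta subunit, had 266 and 375 reads and was 1.27-fold higher (1.08 to 1.49). Suclg2 therefore made up 21.1% of the beta subunit reads in the control (16.8 to 25.8), against 40.9% of them (37.1 to 44.9) in the dKO-labelled library. Its odds against Sucla2 were 2.60-fold higher (1.90 to 3.58).

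Fh1, fumarase, had 12 and 69 reads, 5.18-fold higher (2.79 to 10.5). The malate dehydrogenases differed little. Mdh2, the mitochondrial enzyme that closes the cycle, had 589 and 925 reads (1.42-fold higher, 1.28 to 1.57), and Mdh1, its cytosolic counterpart, 478 and 806 (1.52-fold, 1.36 to 1.71). Their odds did not differ beyond counting error (Mdh1 against Mdh2, 1.07, 0.918 to 1.26). Aco1, the cytosolic aconitase that also binds iron-responsive elements, had 78 and 212 reads, 2.45-fold higher (1.88 to 3.22). Me1, the cytosolic malic enzyme, had 0 and 1 reads in its higher row.

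**Figure D4:**
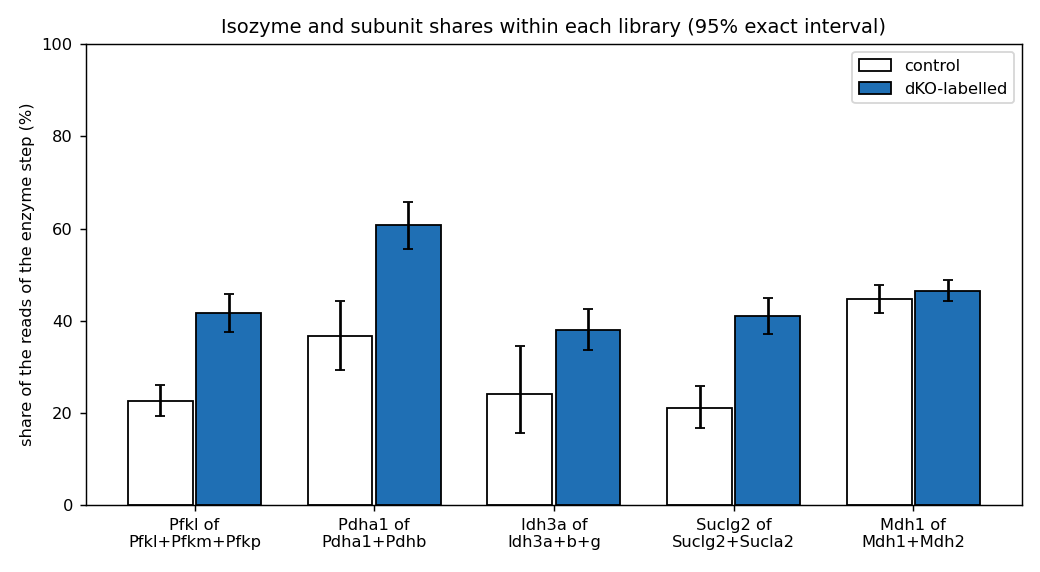
Share (%) of 1 gene among the reads of its enzyme step in the control (white) and dKO-labelled library (blue), with 95% exact intervals. The shares of Pfkl, Pdha1 and Suclg2 are larger in the dKO-labelled library without overlap of the intervals, those of Idh3a overlap, and that of Mdh1 is 44.8% and 46.6%.

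Of 12 pairs compared within an enzyme step 5 had an interval that leaves out 1. They were Pfkl against Pfkp, Pdha1 against Pdhb, Idh3a against Idh3g, and both Suclg1 (3.62, 2.53 to 5.25) and Suclg2 against Sucla2. Among the other pairs of the 12, Aldoa, Ldha and Idh1 had 0 control reads, so these could show little. In each of these 5 pairs the gene named first had fewer control reads than its partner. By the mean of both libraries, Pdha1 and Idh3a lay slightly above theirs. Ratios were higher at lower levels over the whole table, as given above, and the part of level in these odds was not tested. The intervals cover counting error only, and no share over other gene pairs was computed. On reads alone, the exact binomial test called 50.2% of all measured genes higher and 11.6% lower. The comparison of Dlat with Pdhb was 1 of 5 added after the values were seen, of which 4 leave out 1. Dlat against Pdha1 (1.91, 0.959 to 4.10) includes 1. The others were Dld against Pdhb (1.75, 1.20 to 2.57), Idh3a against Cs (6.26, 3.94 to 10.4) and Fh1 against Mdh2 (3.66, 1.95 to 7.49).

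Summed over all members, glycolysis had 3377 and 4311 reads and the TCA cycle 2820 and 5155. There were thus 0.835 TCA cycle reads for each glycolysis read in the control, against 1.20 for the dKO label, which is 1.43-fold higher (1.34 to 1.53). Without Cs and Pgk1, the gene with most reads in each group, it was 1.49-fold higher (1.38 to 1.61). Pyruvate dehydrogenase reads against glycolysis reads were 1.90-fold higher (1.63 to 2.21). As a part of all reads, glycolysis genes took 0.435% and 0.407%, pyruvate dehydrogenase 0.0338% and 0.0599%, and the TCA cycle 0.363% and 0.487%.

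Levels of different genes are compared per length, as normalised counts per kilobase of transcript. In the control the order was led by Pgk1 (496), Mdh2 (426), Tpi1 (402), Cs (353) and Gapdh (304). In the dKO-labelled library it was led by Mdh2 (603), Tpi1 (518), Cs (438), Pgk1 (421) and Mdh1 (361). Pgk1 went from the first to the fourth place, and Hk2 from place 16 to place 27. Idh3a, at 9.20 and 71.5, went from place 23 to place 18. Despite their high ratios, Idh3a, Idh3b and Idh3g stayed well below Cs and Mdh2 in level.

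The members that were not measured share a trait of their RefSeq annotation. The 9 members that were not measured (Hk1, Pfkm, Aldoa, Eno1, Ldha, Ldhb, Idh1, Ogdh and Me1) each have 2 or more curated transcripts in RefSeq. Of the 17 members with 1 such transcript 17 were measured, and of the 19 with more 10 were. Across all genes the shares measured were 29.8% and 28.3% by the same split, but 29.8% of genes with 1 row and 14.5% of genes with several rows in the table. By rows, 26 of 31 members with 1 row were measured, and 1 of 5 with several. Hk1, Pfkm, Eno1, Ldha and Ldhb, which were not measured, have 1 row each. The low counts of the members that were not measured are given as the table holds them. The sources used here do not say how reads shared between transcripts were counted. Transcripts of 8 members (Gapdh, Pgk1, Eno1, Pkm, Ldha, Ldhb, Pdhb and Me1) have a copy of at least 95% identity over at least 50% of their length in another gene, and 71 other genes carry one of Gapdh, so their values are uncertain. Among the members called higher none has such a copy. Pgk1, Pdha1 and Idh3g are X-linked and the libraries differ in sex-linked reads, as given above. Their ratios were 0.850, 3.22 and 3.80.

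In the authors' deposited table, the unadjusted DESeq p-value was under 0.05 for 1 of the 36 members, Idh3a (0.0463), and for 0.558% of all 22040 transcripts. The smallest value after Benjamini-Hochberg adjustment of that column was 0.392.

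Other genes of these pathways were taken from fixed lists. Beyond the members, 6 TCA cycle and malate genes were measured, of which 3 were higher and 0 lower (median log2 ratio 1.06), against the same 26.2% and 4.18% of all genes. With the median of measured genes set to 0, 1 was higher and 0 lower (11.8% and 10.4% of all measured genes). With the upper quartile 0 were higher and 0 lower (8.06% and 15.3%). Me2, the mitochondrial malic enzyme, was 3.13-fold higher (2.29 to 4.33), and the succinate dehydrogenase subunits Sdha and Sdhb 2.46-fold (2.06 to 2.94) and 2.33-fold (1.94 to 2.80). Of 7 measured genes of pyruvate dehydrogenase control and pyruvate import 3 were higher and 0 lower (median 0.95). This became 1 higher and 0 lower with the median of measured genes set to 0 and with the upper quartile. Pdk2, a kinase that inactivates pyruvate dehydrogenase, had 51 and 253 reads and was 4.47-fold higher (3.30 to 6.17), beside 3 of the 4 subunit genes of the complex that were called higher. The pyruvate carrier genes Mpc2 and Mpc1 were 2.16-fold (1.59 to 2.97) and 1.96-fold (1.48 to 2.60) higher.

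The remaining glycolysis genes lay near the control, with 1 of 6 measured higher and 0 lower (median 0.10), against 26.2% and 4.18% of all measured genes. With the median of measured genes set to 0, 1 was higher and 1 lower (11.8% and 10.4%). Galm, which interconverts the anomers of hexoses, was 4.33-fold higher (2.99 to 6.42), whereas Hkdc1, a hexokinase-like gene, was 1.63-fold lower (1.29 to 2.07). The phosphoglucomutases differed in direction with the deposited size factors, Pgm1 being 1.22-fold lower (1.06 to 1.39) and Pgm2 1.57-fold higher (1.16 to 2.14). Of 6 measured genes of glycolytic control and lactate transport 2 were higher and 0 lower (median 0.11), against 26.2% and 4.18% of all measured genes. This became 1 higher and 2 lower with the median of measured genes set to 0. Slc16a1, a lactate and pyruvate transporter, was 2.05-fold higher (1.54 to 2.77). Hif1a, the hypoxia-inducible factor, had 346 and 231 reads and was 1.66-fold lower (1.40 to 1.97), and Pfkfb4, which sets the level of a phosphofructokinase activator, 1.56-fold lower (1.35 to 1.81). Its relative Pfkfb2 was 1.58-fold higher (1.14 to 2.20) with the deposited size factors.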

How the data were processed

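The deposited table holds 22040 RefSeq transcripts. TopHat and DESeq are named in the submitters' processing notes, with build mm9. For the counting method, strand and versions: not given in the sources used here. Its signal columns are normalised counts (base means, per the file headers), and its ratio, log2 and unadjusted p-value columns are the authors' own. All values (100%) were whole multiples of the lowest one (within 0.001 of a step), none was 0, and reads were recovered as steps minus 1, an inference from the values. An edgeR or DESeq2 test was not run because no replicate gives a spread. An exact binomial test on the reads was added as an alternative and called 3013 genes higher and 698 lower. It compares the libraries and not the genotypes. The row with the highest mean stood for a symbol.

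Log2 ratios used a pseudocount of 1. Printed folds are ratios of recovered reads over the size factor ratio, and shares carry exact intervals. Lengths and near-identical copies (BLAST 2.17.0) came from GENCODE M21, whose build differs from mm9. Promoters are RefSeq sequences on GRCm38.p6. TMM came from edgeR 4.0.16 in R 4.3.3, all else from Python 3.11.15 with scipy 1.17.1. Functions were tested on simulated data. Named besides members were up to 4 genes per list with the largest ratio in either direction at a mean of at least 50. Of the genes so named, 1 is not reported here. The members and lists were chosen with earlier results of these data known.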

Additional observations from a re-analysis of the deposited data

How the results depend on the processing

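No paired analysis was possible because each genotype had 1 library, and for the same reason no replicate was left out. Alternatives are named T (total counts), Q (upper quartile), M (TMM), Z (median of measured genes set to 0), F (no filter), H (mean of at least 100), I (interval beyond 2-fold), B (bin medians set to 0) and E (exact binomial test). B and E were chosen after seeing the data. The scalings T, Q and M moved the median of all genes by -0.30, -0.71 and -0.53.

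Among all measured genes (1574 higher, 251 lower, median log2 ratio 0.51), the numbers higher were 972 (T), 477 (Q), 664 (M), 711 (Z), 3704 (F), 358 (H), 627 (I), 611 (B) and 3013 (E). The numbers lower were 437 (T), 904 (Q), 653 (M), 626 (Z), 892 (F), 104 (H), 104 (I), 642 (B) and 698 (E). Their medians were 0.20 (T), -0.20 (Q), -0.019 (M), 0 (Z), 0.10 (F), 0.32 (H) and 0 (B).

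Among the members (12 higher, 0 lower, median 0.93), the numbers higher were 10 (T), 9 (Q), 10 (M), 10 (Z), 15 (F), 5 (H), 10 (I), 10 (B) and 21 (E). The numbers lower were 1 (T), 2 (Q), 2 (M), 2 (Z), 1 (F), 1 (B) and 3 (E). The member medians were 0.63 (T), 0.24 (Q), 0.41 (M), 0.42 (Z), 0.72 (F), 0.59 (H) and 0.62 (B). For glycolysis (1 higher, 0 lower, median 0.30), 3 were higher under F, 0 under H and 5 under E, and 1 (T), 2 (Q), 2 (M), 2 (Z), 1 (B) and 3 (E) were lower. The glycolysis medians were 0.0047 (T), -0.39 (Q), -0.21 (M), -0.21 (Z), 0.43 (F), 0.15 (H), 0.23 (summed rows) and -0.066 (B), so the direction of glycolysis as a group followed the scaling. For pyruvate dehydrogenase (3 higher, median 1.35), 2 were higher under T, M, Z, H, I and B, and 1 under Q. The medians were 1.06 (T), 0.67 (Q), 0.84 (M), 0.85 (Z), 1.05 (H) and 0.95 (B). For the TCA cycle (8 higher, 0 lower, median 1.70), 7 were higher under T, Q, M, Z, I and B. Under F 9 were higher and 1 was lower, and 3 were higher under H and 13 under E. The TCA cycle medians were 1.40 (T), 1.01 (Q), 1.18 (M), 1.19 (Z), 1.48 (F), 0.67 (H) and 1.29 (B).

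Over the other genes of the wider lists pooled (15 higher, 0 lower, median 0.85), the numbers higher were 7 (T), 5 (Q), 7 (M), 7 (Z), 22 (F), 10 (H), 8 (I), 7 (B) and 28 (E). The numbers lower were 3 (T), 6 (Q), 5 (M), 4 (Z), 2 (F), 4 (B) and 5 (E). The medians of the pooled lists were 0.56 (T), 0.17 (Q), 0.34 (M), 0.35 (Z), 0.81 (pseudocount of 5), 0.74 (F) and 0.46 (B).

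Aldoc, Dlat, Idh2, Idh3a, Idh3b, Idh3g, Suclg1, Suclg2 and Fh1 kept a log2 ratio of at least 1 in 8 of 8 alternatives that keep the filter of 20. These were T, Q, M, Z, B, a pseudocount of 5, summed rows and the added read taken off. Pdha1 did so in 7 of them, and Dld and Aco1 in 3. Summed rows could not move any of these genes, which have 1 row each. For Dld and Aco1 the 3 were the pseudocount, summed rows and the added read, which leave the scaling unchanged. Aldoc, Dlat, Idh2 and Fh1 passed the filter of 20 through the dKO-labelled library only. Under H, Pdha1, Dld, Aco1, Suclg1 and Suclg2 stayed called, and the others had a mean below 100. The ratio of TCA cycle to glycolysis reads moved by less than its counting interval in its 3 alternatives. Depth limits Aldoc, Dlat, Idh2 and Fh1, with 7 to 12 control reads, to wide intervals. The cause of these shifts was not tested.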

Other observations

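The pentose phosphate pathway, which branches off glycolysis to make NADPH and ribose, was measured in all 7 of its listed genes. Of them 2 were higher and 0 lower (median log2 ratio 0.82, beside 0.51 for all measured genes). Their share called higher, 28.6%, was close to the 26.2% of all measured genes, of which 4.18% were lower. G6pdx, the X-linked first enzyme of the branch, had 23 and 87 reads, 3.41-fold higher (2.13 to 5.66), and Pgls, the lactonase that follows it, 48 and 175, 3.29-fold higher (2.38 to 4.62). Rpia and Rpe, which interconvert the pentose phosphates, were 1.84-fold (1.28 to 2.69) and 1.80-fold (1.22 to 2.69) higher.

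Of 6 measured genes of mitochondrial shuttles and carriers 4 were higher and 0 lower (median 1.12), against 26.2% and 4.18% of all measured genes. With the median of measured genes set to 0, 1 was higher and 1 lower (11.8% and 10.4% of all measured genes). Got2, the mitochondrial aspartate aminotransferase, had 9 and 99 reads, 9.92-fold higher (5.02 to 22.3), and counted as measured through the dKO-labelled library only, while its cytosolic partner Got1, named after its values were seen, had 309 and 206 reads and was 1.66-fold lower (1.39 to 1.99). The citrate carrier gene Slc25a1 was 2.27-fold higher (1.93 to 2.68), the oxoglutarate carrier gene Slc25a11 2.23-fold (1.78 to 2.80) and Gpd1, the cytosolic glycerol phosphate dehydrogenase, 2.14-fold (1.86 to 2.46).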
